A study of Mus musculus with 2 samples.

Results

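Periportal hepatocytes, the hepatocytes that line the portal end of the liver lobule, were examined in single-cell libraries of livers from WT mice and from mice lacking NgBR (Nus1) in the liver (N-LKO). They were selected on measured values. A barcode, which stands for 1 droplet, was taken as periportal when it held at least 1000 UMIs (unique molecular identifiers, each counting 1 captured transcript) and at least 400 genes, with at most 30% of UMIs from mitochondrially encoded genes and Malat1, a nuclear RNA, under 1%. It held no UMI of Clec4f, Cd5l, Stab2, Ptprb, Skap1, Dcn or Ebf1, which mark Kupffer, endothelial, lymphoid and stellate cells. It held fewer than 4 UMIs of Saa1, Saa2, Lcn2 and Spp1 together. Finally, its summed UMIs of Cyp2f2, Hal, Sds, Gls2 and Hsd17b13 were at least 3 and more than 2 times the sum of the pericentral genes Cyp2e1, Cyp1a2, Oat, Slc1a2 and Gulo. This left 2000 periportal barcodes of 190318 (1.05%), of which 1728 came from WT and 272 from N-LKO. Without the limit on Saa1, Saa2, Lcn2 and Spp1, 1755 WT and 463 N-LKO barcodes met the rule. That limit thus removed a larger part in N-LKO, and the comparisons below leave those barcodes out.

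Blood enters the lobule at the portal tract and leaves at the central vein, so hepatocytes at the portal end meet the most oxygen and nutrients. They are known for urea synthesis, amino acid breakdown, gluconeogenesis and the secretion of plasma proteins, while pericentral hepatocytes make glutamine and hold most cytochrome P450 enzymes. NgBR pairs with Dhdds to form cis-prenyltransferase, which makes dolichol, the lipid on which the sugar chains of N-linked glycoproteins are assembled.

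Both libraries came from male mice on a C57BL6 background. The N-LKO mice carried albumin-Cre, which acts in hepatocytes, and loxP-flanked NgBR. The diet lasted 16 weeks in both groups, and it is called HFD in the sample titles but WD in the treatment labels. The paper states that the mice of the single-cell libraries were fed WD, a Western-type diet rich in fat and cholesterol. WT hepatocytes were mixed with nonparenchymal cells in equal parts, and for N-LKO a smaller part of tumor cells was added to the mixture. The labels give neither the age of the mice nor how many were pooled. There was 1 library per group, so genotype, tumor tissue and library cannot be told apart, no test across samples was possible, and every 95% interval below covers counting error only.

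The libraries held 85522287 UMIs in WT and 87575064 in N-LKO. Periportal barcodes had a median of 1706 UMIs and 798 genes in WT and of 1736.5 UMIs and 840 genes in N-LKO. Summed over these barcodes, WT had 3224075 UMIs and N-LKO 553789, and a gene was typically backed by 97 UMIs in WT but by 19 in N-LKO (medians over 7400 measured genes). Of the periportal barcodes, 50 in WT and 10 in N-LKO had a sequence that also occurred in the other library, and none was periportal in both.

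The hepatocyte part of the label was checked against genes that the selection did not use. Albumin (Alb) reached 27635 CPM (counts per 1000000 UMIs) in WT periportal barcodes and 14863 CPM in N-LKO, against 7288 and 3967 CPM in barcodes holding at least 3 UMIs of the nonparenchymal genes. Hnf4a, a transcription factor of hepatocyte identity, stood at 148.6 CPM in WT against 173.4 CPM in N-LKO, and at 79.0 and 58.4 CPM in those nonparenchymal barcodes. Both genes mark hepatocytes of any zone, so neither checks the periportal part of the label. RNA of other cells was present as well. A list of 46 further nonparenchymal markers summed to 945 CPM in WT periportal barcodes and to 1761 CPM in N-LKO. Without a UMI were 0 of the 46 genes in WT and 5 in N-LKO, where fewer UMIs were summed. Barcodes under 500 UMIs are called free RNA below, but whether they held mainly free RNA was not tested. In them the same list summed to 1597 and 3571 CPM. Mitochondrially encoded genes summed there to 210539 CPM (WT) against 347544 CPM (N-LKO), and nuclear-encoded respiratory chain genes to 38740 against 12452 CPM. In periportal barcodes these sums were 187328 against 154595 CPM and 27502.5 against 28204 CPM. If all of the nonparenchymal list in periportal barcodes were free RNA of this profile, free RNA would make up at most 59.2% of their UMIs in WT and 49.3% in N-LKO. The list was spread unevenly, because 698 WT barcodes (40.4%) and 55 N-LKO barcodes (20.2%) held no UMI of it and 21 WT and 11 N-LKO barcodes held at least 20.

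The genes that chose the cells are given as a description. Cyp2f2, a lung and liver cytochrome P450, stood at 1243 CPM in WT against 713 CPM in N-LKO. Hal, which starts histidine breakdown, stood at 485 and 269 CPM, and the glutaminase Gls2 at 589 and 291 CPM. Sds, the serine dehydratase, was at 195 CPM in WT against 262 CPM in N-LKO, and Hsd17b13, a lipid droplet protein, at 447 and 789 CPM. The N-LKO barcodes therefore met the same rule with more Hsd17b13 and less Cyp2f2, Hal and Gls2. At least 3 of the 5 genes were seen in 68.9% of WT and 55.1% of N-LKO barcodes, and no pericentral UMI was seen in 58.6% and 67.6%.

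Barcodes close to the limits differed from those well inside them. With a periportal sum of 3, just inside, Alb stood at 22673 CPM in WT (420 barcodes) and 13820 CPM in N-LKO (103 barcodes), and with a sum of 2, just outside, at 18750 CPM (287 barcodes) and 11431 CPM (152 barcodes). The nonparenchymal list summed to 2823 CPM in N-LKO barcodes with a sum of 3, and to 6317 CPM in those with a sum of 2. With a sum of 6 or more it was 1246 CPM in N-LKO and 556 CPM in WT.

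The first question was how much of the zonated hepatocyte pool was periportal. Zonated barcodes passed every filter and held at least 3 UMIs of the 10 zone genes. The periportal share was 46.4% in WT (1728 of 3728, exact Clopper-Pearson interval 44.7% to 48.0%) and 44.5% in N-LKO (272 of 611, 40.5% to 48.6%), so the intervals overlapped. With each barcode thinned to 1000 UMIs the shares were 40.1% and 41.7%. The pericentral share was 17.6% in WT and 30.9% in N-LKO, and these intervals did not overlap (16.4% to 18.8% and 27.3% to 34.8%). The likeness of the periportal shares depended on the limits. Among barcodes of at least 2000 UMIs the share was 70.9% in WT and 47.2% in N-LKO, with Saa1, Saa2, Lcn2 and Spp1 at 0 it was 46.8% and 33.2%, and with at most 10% mitochondrial UMIs 46.1% and 64.8%. Zonated barcodes made up 69.7% of all barcodes that passed these filters in WT but 25.1% in N-LKO. The filters required no hepatocyte gene, so the remaining barcodes need not be hepatocytes. Among nonparenchymal barcodes, which should not be periportal, 8.03% in WT and 2.71% in N-LKO met the 2 zone conditions, at median depths of 1355 and 1465 UMIs.

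**Figure D1:**
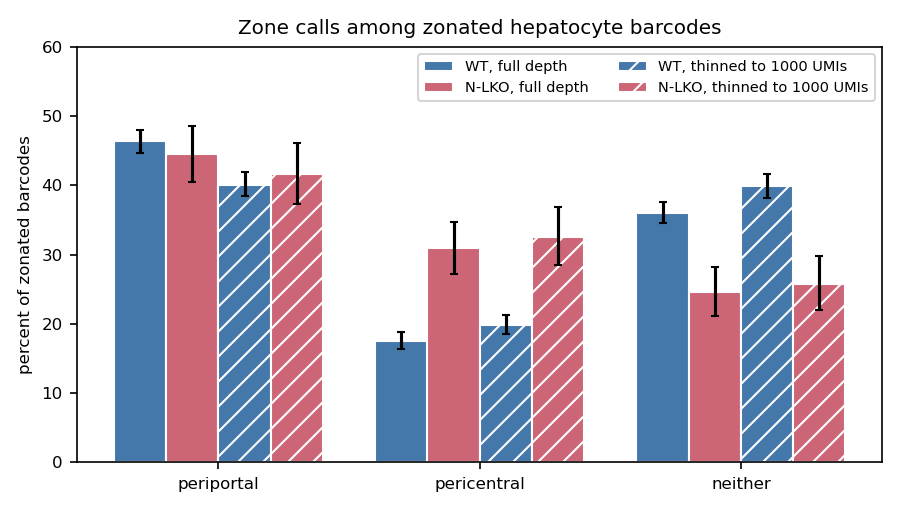
Share of zonated barcodes (percent, y axis) called periportal, pericentral or neither in WT (blue) and N-LKO (red), at full depth (plain) and thinned to 1000 UMIs (hatched), with exact 95% intervals. The periportal bars of the libraries overlap (46.4% and 44.5% at full depth), and the pericentral bar is higher in N-LKO (30.9%) than in WT (17.6%).

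Nus1 (ENSMUSG00000023068), the targeted gene, was the first gene compared. It had 220 UMIs in WT periportal barcodes (68.2 CPM) and 20 UMIs in N-LKO (36.1 CPM), a log2 ratio of -0.89 (-1.66 to -0.26) for N-LKO over WT. A Nus1 UMI was seen in 11.9% of WT against 6.99% of N-LKO periportal barcodes, and in 12.5% and 13.8% of nonparenchymal barcodes. Nus1 was thus lower in the library labelled N-LKO without being absent. Free RNA carried it at 57.8 CPM in WT against 37.4 CPM in N-LKO, close to the periportal levels in both, and reads from the 3′ end need not cover a deleted exon. With at most 10% mitochondrial UMIs, which left 107 and 35 barcodes, the log2 ratio was -0.054. Dhdds, its partner, had 34 UMIs in WT (10.5 CPM) and 9 in N-LKO (16.3 CPM), too few to tell the levels apart (log2 ratio 0.68, -0.62 to 1.71).

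Across 7400 measured genes (mean of at least 10 CPM, without the genes of the selection), the median log2 ratio of N-LKO over WT was 0.22, with quartiles of -0.14 and 0.61. At least 2-fold higher in N-LKO were 787 genes (10.6%), and at least 2-fold lower were 190 (2.57%). Relative to the median of all genes the counts were 471 higher and 342 lower, so the excess of higher genes rests in part on the scale. The whole counting interval lay past 2-fold for 137 higher and 36 lower genes. The median over the longest of 5 length classes of genes was 0.37, against 0.13 to 0.23 in the others. Every ratio below is the log2 of N-LKO over WT CPM in periportal barcodes unless stated, and a list's median is to be read against 0.22. Because that median is above 0, so were most measured genes, and counts above or below 0 in a list carry this offset. Counts past 2-fold in a list are to be read against 10.6% (higher) and 2.57% (lower) of all genes.

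**Figure D2:**
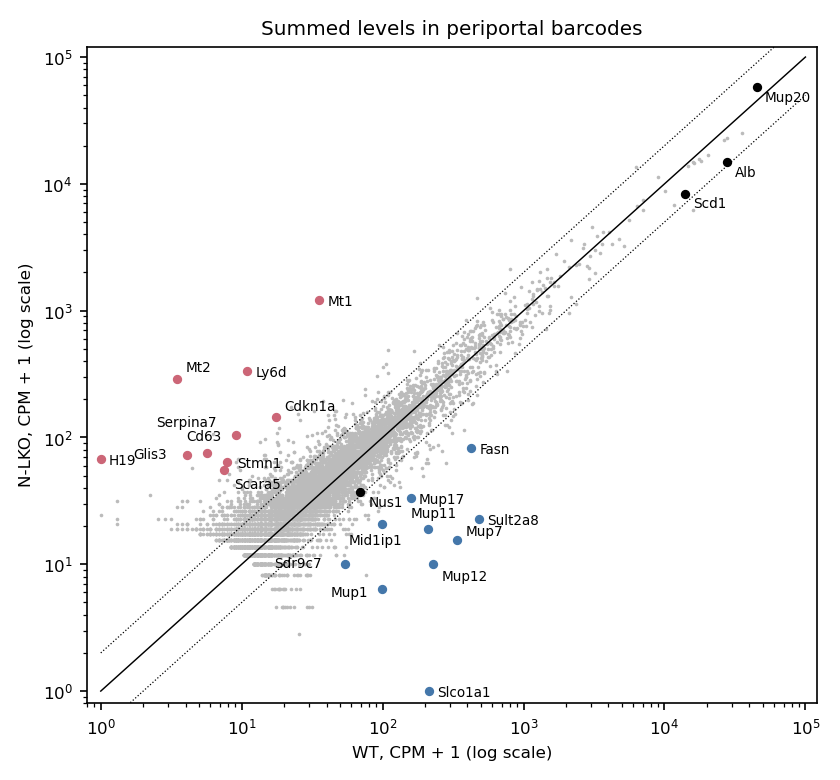
Summed level of each measured gene in periportal barcodes (CPM + 1) in WT (x axis) and N-LKO (y axis), both on log scales, with equality as a solid line and 2-fold limits dotted. The 10 genes with the highest and the 10 with the lowest ratios are in red and blue, with Slco1a1 at 0 in N-LKO and H19 at 0 in WT, and Alb, Mup20, Scd1 and Nus1 are in black.

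The genes with the highest ratios included the metallothioneins, small proteins that bind zinc and copper. Mt1 stood at 34.4 CPM in WT against 1219 CPM in N-LKO (35.4-fold), and it was found in 5.21% of WT but 69.5% of N-LKO periportal barcodes. Mt2 stood at 2.48 and 291 CPM and was found in 0.463% and 38.2% of barcodes. Both were also higher in free RNA of N-LKO, where Mt1 reached 591 CPM and Mt2 185 CPM. In nonparenchymal barcodes Mt1 was found in 14.7% (WT) and 41.7% (N-LKO). The share in periportal barcodes thus exceeded the nonparenchymal one in N-LKO but not in WT.

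Ly6d, a small membrane-anchored protein of the Ly6 family, stood at 9.93 CPM in WT against 332 CPM in N-LKO (33.5-fold). It was found in 32.4% of N-LKO periportal barcodes, with up to 22 UMIs in 1 barcode, against 1.68% in WT and 10.6% of N-LKO nonparenchymal barcodes. Cdkn1a, which encodes the cell cycle inhibitor p21, stood at 16.4 and 144.5 CPM and was seen in 2.95% of WT but 23.9% of N-LKO barcodes. Thinned to 1000 UMIs, the N-LKO shares were 57.0% for Mt1, 23.2% for Ly6d and 11.8% for Cdkn1a, against 30.8%, 7.34% and 8.43% in N-LKO nonparenchymal barcodes. Cdkn1a was thus near that background at equal depth, while Mt1 and Ly6d were above it.

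The other genes of this group were carried by fewer barcodes. The transcription factor Glis3 was found in 8.46% of N-LKO and 0.579% of WT periportal barcodes, the ferritin receptor Scara5 in 9.93% and 1.22%, and Serpina7, which encodes thyroxine-binding globulin, in 10.7% and 1.39%. In N-LKO nonparenchymal barcodes Glis3 was found in 6.91%, Scara5 in 3.55% and Serpina7 in 4.93%, and after thinning the periportal and nonparenchymal shares of Glis3 were 4.78% and 4.55%. The tetraspanin Cd63 was found in 11.8% of N-LKO periportal barcodes but in 23.4% of N-LKO nonparenchymal barcodes, and the tubulin-binding protein Stmn1 in 7.72% and 8.02%, so for these 2 genes the periportal share was at or below the nonparenchymal one. H19, an imprinted fetal RNA, had no UMI in WT and 37 UMIs in N-LKO, at least 71.8-fold higher against a floor of 3 UMIs over the group. Only 1.47% of N-LKO barcodes (4) held it, and 23 of the 37 UMIs lay in 1 barcode. Without that barcode the bound was 27.2-fold.

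The genes with the lowest ratios included transporters, enzymes and urinary proteins of the liver, several of which the growth hormone pulses of male mice are known to maintain. Slco1a1 (ENSMUSG00000041698), an organic anion transporter on the sinusoidal side, had 680 UMIs in WT (211 CPM, 29.6% of barcodes) and none in N-LKO, at least 38.9-fold lower. A UMI of it in 0 of 272 barcodes allows a share of barcodes with a UMI of up to 1.10% (3 counts of 272), which says nothing of expression below the depth of these barcodes. Pericentral barcodes of N-LKO held 17 UMIs of it (46.1 CPM, against 283 CPM in WT). Sult2a8, a bile acid sulfotransferase, stood at 481 CPM in WT against 21.7 CPM in N-LKO (22.2-fold lower), and it was found in 53.0% and 3.68% of barcodes. Sdr9c7, a short-chain dehydrogenase, stood at 53.0 and 9.03 CPM. Each of these was also lower in the free RNA of N-LKO, with Slco1a1 at 108 CPM in WT against 6.89 CPM in N-LKO.

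Major urinary proteins, pheromone carriers made in male liver, differed among themselves. Mup7 stood at 337 CPM in WT against 14.4 CPM in N-LKO, Mup12 at 227 and 9.03 CPM, Mup11 at 208 and 18.1 CPM, Mup17 at 157 and 32.5 CPM and Mup1 at 98.6 and 5.42 CPM (3 UMIs in N-LKO, log2 ratio -3.97, -6.47 to -2.63). Mup3 was lower but still abundant, at 16054 CPM in WT against 6266 CPM in N-LKO. Mup20, the most abundant of the family, was not lower, at 45107 CPM in WT against 57652 CPM in N-LKO (0.35), and its ratio was -0.25 without the Malat1 limit. The members of this family are near-identical in sequence, so reads may be split among them and single members are uncertain. Over the list of these proteins and other growth hormone targets, 11 of 25 measured genes were at least 2-fold lower and none at least 2-fold higher, with a median of -0.86 in periportal and -1.56 in pericentral barcodes. Serpina1e, an antitrypsin, was also lower (2369 and 1127 CPM, -1.07).

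Lipid synthesis genes were also often lower. Of 19 measured genes of fatty acid and triglyceride synthesis, 8 were at least 2-fold lower and 2 at least 2-fold higher, with a median of -0.79 (-0.50 in pericentral barcodes). Fasn, the fatty acid synthase, stood at 424 CPM in WT against 81.3 CPM in N-LKO (5.22-fold lower) and was found in 51.7% and 12.1% of barcodes. The lipogenic regulator Srebf1 stood at 189 and 56.0 CPM (-1.73), the citrate lyase Acly at 378 and 114 CPM (-1.72), and Mid1ip1, which activates acetyl-CoA carboxylase and was not on the list, at 98.3 and 19.9 CPM. Thrsp, a lipogenic nuclear protein, had a ratio of -1.23 and the elongase Elovl5 one of -1.01. The 2 higher ones were the phosphatidate phosphatase Lpin1 (73.5 and 215 CPM, 1.55) and Dgat1, which completes triglycerides (20 UMIs in WT, 9 in N-LKO, 1.43). Scd1, the stearoyl-CoA desaturase, remained abundant at 13923 CPM in WT against 8377 CPM in N-LKO (-0.73).

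Lipid uptake and storage genes did not share one direction. Of 20 measured genes 7 were at least 2-fold higher and none at least 2-fold lower, and the median was 0.15, which is -0.07 relative to all genes. Lpl, a lipase that frees fatty acids from lipoproteins, stood at 24.2 CPM in WT against 153.5 CPM in N-LKO (2.66), the fatty acid carrier Fabp4 at 17.7 and 75.8 CPM (2.11), and the lipid droplet protein Cidec at 8.37 and 32.5 CPM (1.97). Free RNA of N-LKO held Lpl at 190 CPM, Fabp4 at 128 CPM and Cidec at 64.1 CPM, above their periportal levels. Its part in these ratios was not tested. Plin2, which coats lipid droplets, was at 269 and 336 CPM (0.32). The most abundant member, the liver fatty acid carrier Fabp1, stood at 11754 CPM in WT against 6851 CPM in N-LKO.

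Lipoprotein genes were near their WT levels. Of 22 measured apolipoprotein and VLDL assembly genes 1 was at least 2-fold higher (Pltp, 9.62 and 21.7 CPM) and none at least 2-fold lower, with a median of -0.04. Pltp stood at 61.7 CPM in free RNA of N-LKO, above its periportal level. Apoc1 (18272 and 15275 CPM), Apoa2 (14565 and 13928 CPM) and Apoe (8959 and 11354 CPM) were the most abundant. Mttp, which loads lipid onto ApoB, stood at 130 and 75.8 CPM (-0.76), and Apob itself at 3224 and 3008 CPM (-0.10). Apoa4, which is made mainly in the gut and in the steatotic liver, had a ratio of 0.83 in periportal but 2.59 in pericentral barcodes. The fatty acid oxidation and ketogenesis list had a median of -0.04. Against 10.6% of all genes, 3 of its 29 were at least 2-fold higher. These were Angptl4 (2.11), Pdk4 (1.66) and Acot1 (1.26, but -1.19 with at most 10% mitochondrial UMIs).

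The nitrogen metabolism that periportal cells are known for showed small differences in one direction. Of 14 measured urea cycle and ammonia genes 12 were below 0 and none passed 2-fold, with a median of -0.27. Cps1, the first enzyme of the cycle, stood at 2912 CPM in WT against 2169 CPM in N-LKO (-0.42, -0.51 to -0.34). Ass1 stood at 1023 and 838 CPM (-0.29) and arginase Arg1, which releases urea, at 972 and 820 CPM (-0.24). In pericentral barcodes the same ratios were -0.97, -0.94 and -1.18. With free RNA subtracted the median of this list was 0.12, above 0 but below that of all genes under that setting. The list median was below 0 in 16 of the 17 alternatives.

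Of 30 measured genes of amino acid breakdown 25 were below 0, 3 at least 2-fold lower and none at least 2-fold higher, with a median of -0.44. Tat, the tyrosine aminotransferase, stood at 864 CPM in WT against 462 CPM in N-LKO (-0.90). Shmt1 (-1.33), Haao (-1.14) and Hgd (-1.02), which act on serine, tryptophan and tyrosine products, were the 3 past 2-fold. Tdo2, which opens the tryptophan ring, was level at 1342 and 1401 CPM (0.06). In glucose metabolism the median was -0.11 over 20 genes. G6pc, the last step of glucose release, stood at 758 and 330.5 CPM (-1.19), while Pck1, the entry step of gluconeogenesis and itself a periportal gene, stood at 1170 and 1309 CPM (0.16, but -0.06 relative to all genes). The regulators Foxo1 (1.18) and Cebpb (1.01) were at least 2-fold higher.

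None of 75 measured nuclear-encoded respiratory chain genes passed 2-fold, and their median was 0.06, or -0.15 relative to all genes. This median depended on the processing, at 1.72 with free RNA subtracted, -0.45 with at most 10% mitochondrial UMIs and -0.37 without the Malat1 limit. All 13 mitochondrially encoded genes were below 0, with a median of -0.27, and mt-Co1 stood at 35602 CPM in WT against 25138 CPM in N-LKO. With at most 10% mitochondrial UMIs the median was 0.056. The median mitochondrial share of UMIs was 18.7% in WT and 15.5% in N-LKO periportal barcodes.

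Many genes of secreted inflammation proteins were higher in N-LKO in the summed counts, although the selection had removed barcodes with 4 or more UMIs of Saa1, Saa2, Lcn2 and Spp1. Of 28 measured acute phase genes 25 were above 0, 8 at least 2-fold higher and 1 (Serpina1e) at least 2-fold lower, with a median of 0.59 in periportal and 0.76 in pericentral barcodes. With free RNA subtracted the median was 0.22, below the 0.34 of all genes under that setting. Beside Mt1 and Mt2, which belong to this list, Orm2 stood at 8.06 CPM in WT against 63.2 CPM in N-LKO (2.96), haptoglobin (Hp) at 796.5 and 2122 CPM (1.41) and the fibrinogen chain Fgb at 2156 and 3613 CPM (0.75). The protease inhibitor Serpina3k ran the other way, at 5172 and 3252 CPM (-0.67). Free RNA of N-LKO held Orm2 at 79.2 CPM, above its periportal level, and its part in the ratio was not tested. Hepcidin (Hamp), the iron hormone, stood at 2960 and 2710 CPM (-0.13) in periportal barcodes and had a ratio of -1.06 in pericentral ones.

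Plasma protein genes differed less. The complement and coagulation list had a median of -0.01, with 1 of 37 measured genes at least 2-fold lower (Serpina6, the cortisol carrier, -1.07) and none at least 2-fold higher. Within it, Alb was lower (-0.89, -0.93 to -0.86), while transthyretin (Ttr, 0.06) and the vitamin D carrier Gc (0.22) were near or at the median of all genes. Alb in pericentral barcodes was at 16467 CPM in WT against 14639 CPM in N-LKO, so the libraries differed in periportal barcodes and hardly in pericentral ones.

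**Figure D3:**
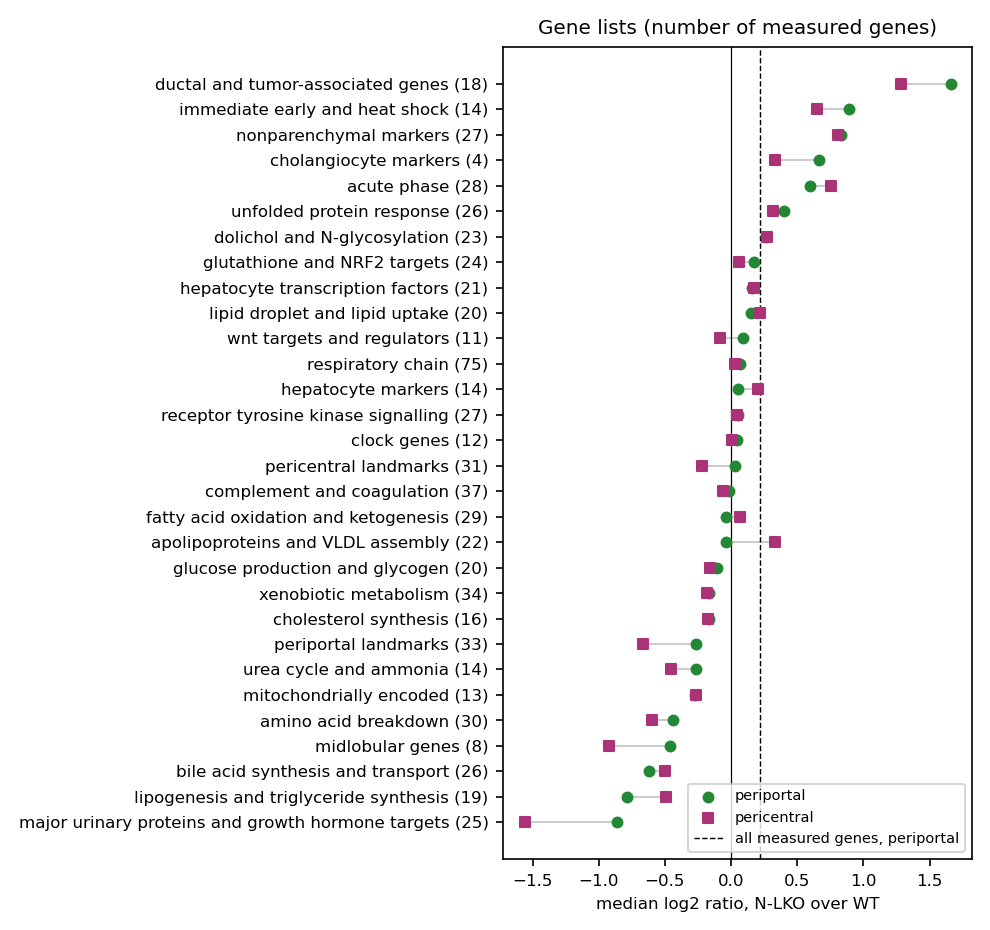
Median log2 ratio of N-LKO over WT (x axis) for 30 gene lists in periportal (green circles) and pericentral barcodes (purple squares), with the number of measured genes in brackets and the median of all measured genes as a dashed line. Ductal and tumor-associated genes lie highest (1.66) and major urinary proteins and growth hormone targets lowest (-0.86) in periportal barcodes.

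Endoplasmic reticulum genes were above 0 for the most part. Of 26 measured genes of the unfolded protein response 21 were above 0, 5 at least 2-fold higher and none at least 2-fold lower, with a median of 0.40. Relative to all genes the median was 0.18, and over the alternative settings it ran from 0.011 to 0.96. The chaperones Hspa5 (515 CPM in WT, 820 CPM in N-LKO, 0.67) and Hsp90b1 (469 and 767 CPM, 0.71) were the most abundant. Free RNA held Hspa5 at 254.5 CPM in WT against 641 CPM in N-LKO, and Hsp90b1 at 239 and 607 CPM. The stress-induced factor Atf3 stood at 17.1 and 86.7 CPM (2.35), and Creld2 (2.12) and Sdf2l1 (2.06), both induced when proteins misfold, were the next highest. Atf3 also belongs to a list of heat shock and immediate early genes, known to respond to cell isolation. Of 14 measured genes of that list 6 were at least 2-fold higher, with a median of 0.89, among them Hspb1 (2.44) and Btg2 (1.90). The part of isolation in these ratios was not tested. The dolichol and N-glycosylation list, in which Nus1 was the lowest member, had a median of 0.26 over 23 measured genes, with 1 gene, the oligosaccharyltransferase subunit Dad1 (100.5 and 204 CPM, 1.03), at least 2-fold higher.

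Of 26 bile acid genes 7 were at least 2-fold lower and 1 at least 2-fold higher, with a median of -0.62, which turned to 0.18 with at most 10% mitochondrial UMIs. Beside Slco1a1 and Sult2a8, the sodium-dependent bile acid importer Slc10a1 stood at 311 CPM in WT against 108 CPM in N-LKO (-1.51). The exporter Abcc4 was the higher one, at 2.79 and 30.7 CPM (3.42). The canalicular exporter Abcc2 was level at 493 and 466 CPM (-0.08). In xenobiotic metabolism the median was -0.17 over 34 genes, with 3 at least 2-fold higher and 2 at least 2-fold lower. Over all genes these shares were 10.6% and 2.57%. Cyp3a11, a broad P450 that is otherwise pericentral, stood at 109 and 486 CPM (2.16), with 550 CPM in free RNA of N-LKO. The other 2 higher ones were the P450 reductase Por (1.34) and Cyp2c68 (1.33). Cyp2u1 (-1.81) and Cyp2c29 (-1.46) were the 2 lower ones, and without the Malat1 limit Cyp2c29 was at 0.025.

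Genes of biliary, fetal or transformed hepatocytes formed the list with the highest median. Of 30 genes 18 were measured, 15 of these were at least 2-fold higher and none was lower, with a median of 1.66 (1.29 in pericentral barcodes). The list was written with earlier results of these libraries known, and its count is therefore no independent evidence. Krt8, a keratin of all hepatocytes and bile duct cells, stood at 249 CPM in WT against 536 CPM in N-LKO (1.11), the annexin Anxa5 at 90.6 and 305 CPM (1.75) and S100a10 at 274 and 464 CPM (0.76). Of the list, 3 genes had no UMI in WT periportal barcodes and 6 none in N-LKO, where fewer UMIs were summed. The list summed to 1036 CPM in WT against 2835 CPM in N-LKO periportal barcodes, and to 1334 and 1740 CPM in barcodes under 500 UMIs. Cholangiocyte markers gave no common picture. Of 11 markers 4 were measured. Sox9 (52.4 and 54.2 CPM, 0.07) and Dsg2 (112.6 and 112.0 CPM) were level. The trefoil peptide Tff3 (12.4 and 90.3 CPM, 2.86) and Pkhd1 (25.1 and 59.6 CPM, 1.26) were at least 2-fold higher. Krt19, Krt7, Epcam, Cftr and Cldn7 had at most 3 UMIs each in WT and 0 in N-LKO, where fewer UMIs were summed.

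With at most 1 UMI of the 46 nonparenchymal markers allowed, a limit set after seeing the data, 1186 WT and 129 N-LKO periportal barcodes remained. The leading genes differed between the libraries there too. Mt1 stood at 36.3 CPM in WT against 1345 CPM in N-LKO, Ly6d at 8.97 and 288 CPM, Cdkn1a at 15.3 and 106 CPM, Fasn at 429 and 89.4 CPM and Slco1a1 at 219 and 0 CPM. The median of the ductal and tumor-associated list was 1.49, that of the acute phase list 0.59 and that of the growth hormone list -0.91. The nonparenchymal list itself had a median of 0.83 over its 27 measured genes among all periportal barcodes, led by the neutrophil genes S100a9 (8.37 and 66.8 CPM) and S100a8 (7.13 and 50.6 CPM).

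The next question was whether periportal barcodes held the periportal pattern within each library. Of 33 measured periportal landmark genes, none of which chose the cells, 32 were higher in periportal than in pericentral barcodes in WT and 30 in N-LKO, with a median log2 ratio of periportal over pericentral of 0.55 and 0.72. Over all 7400 measured genes that median was -0.08 in WT and -0.03 in N-LKO, and 40.0% and 48.3% of the genes were above 0. Pericentral landmarks had medians of -1.63 and -1.45. These values follow from choosing the cells at both ends by zone genes of the same barcodes and are a description. Across 2678 genes of at least 50 CPM, zonation in WT and in N-LKO had a Pearson r of 0.57 and a Spearman rho of 0.38. The genes are not independent replicates, and within each library all share the same barcodes and depth.

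Of the periportal landmarks themselves 25 of 33 were lower in N-LKO periportal barcodes, 3 at least 2-fold, with a median of -0.26 for N-LKO over WT, and in pericentral barcodes the median was -0.66. The 3 were Sult5a1 (22.3 and 3.61 CPM), the phospholyase Etnppl (282 and 61.4 CPM) and Acly. The iron carrier transferrin (Trf, 5581 and 5175 CPM) and Serpina1c (3612 and 3339 CPM) were the most abundant. Arg1 thus had a steeper gradient in N-LKO (1.43 for periportal over pericentral, against 0.49 in WT), as did Ass1 (1.38 and 0.73), because the N-LKO pericentral level was lower. Alb, by contrast, had a gradient of 0.75 in WT and 0.02 in N-LKO, and Apoa4 one of 1.04 in WT and -0.72 in N-LKO.

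The genes most periportal in both libraries, outside the selection, were named by the smaller of their 2 gradients. Aldh1b1, an aldehyde dehydrogenase, had gradients of 1.22 in WT and 2.90 in N-LKO, Serpina1e of 1.41 and 1.90, and the urinary protein Mup21 of 1.17 and 1.97. Defb1 (a defensin), Slc3a1 (a cystine transporter subunit), Ntrk2, Ctnnbip1 and Ncam2 completed the 8, but each had only 2 or 3 UMIs in N-LKO pericentral barcodes. Aldh1b1 had 4 there, with an interval of 1.61 to 4.99 for its N-LKO gradient, and that of Defb1 ran from 0.52 to 5.73. By the same measure the most pericentral was glutamine synthetase (Glul), at 158 CPM in periportal and 2184 CPM in pericentral barcodes of WT (-3.79) and at 56.0 and 1161 CPM in N-LKO (-4.35). Cyp2c29 (-3.54 and -3.95) and Cyp2c50 (-2.88 and -3.48) came next, and Cyp4a14, Cyp3a11, Lect2, Mup11 and Mup17 completed that side.

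**Figure D4:**
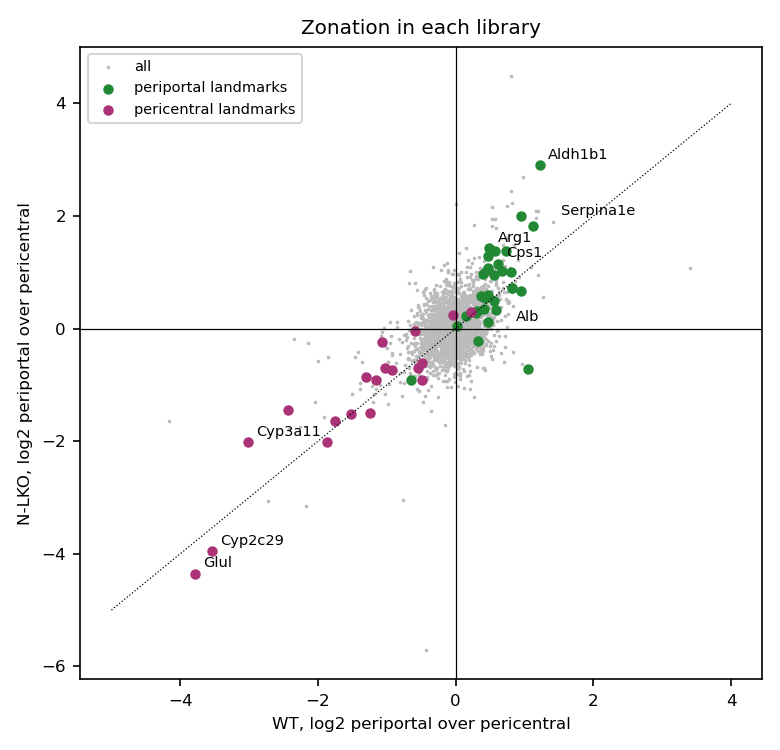
Log2 ratio of periportal over pericentral CPM in WT (x axis) and N-LKO (y axis) for genes of at least 50 CPM, with periportal landmarks in green, pericentral landmarks in purple and equality dotted. Glul (-3.79 and -4.35) and Cyp2c29 (-3.54 and -3.95) lie far below 0 in both libraries, Aldh1b1 lies above the line and Alb, at 0.75 in WT and 0.02 in N-LKO, below it.

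Periportal barcodes also varied among themselves. The middle 80% of WT barcodes ranged from 1.08% to 4.53% of UMIs for Alb, and in N-LKO from 0.371% to 2.76%, with medians of 2.42% and 1.31%. Urea cycle genes took 0.490% to 1.13% in WT (median 0.809%) and 0.240% to 1.09% in N-LKO (median 0.637%). Major urinary proteins took 2.70% to 9.88% in WT (median 5.32%) and 0.988% to 12.1% in N-LKO (median 6.39%), the widest range of the groups plotted on the log scale. Acute phase genes had medians of 2.31% and 3.04%. For Alb, the urea cycle and the urinary proteins the lower end of the N-LKO range lay below that of WT, and for Alb and, by little, the urea cycle the upper end did too.

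**Figure D5:**
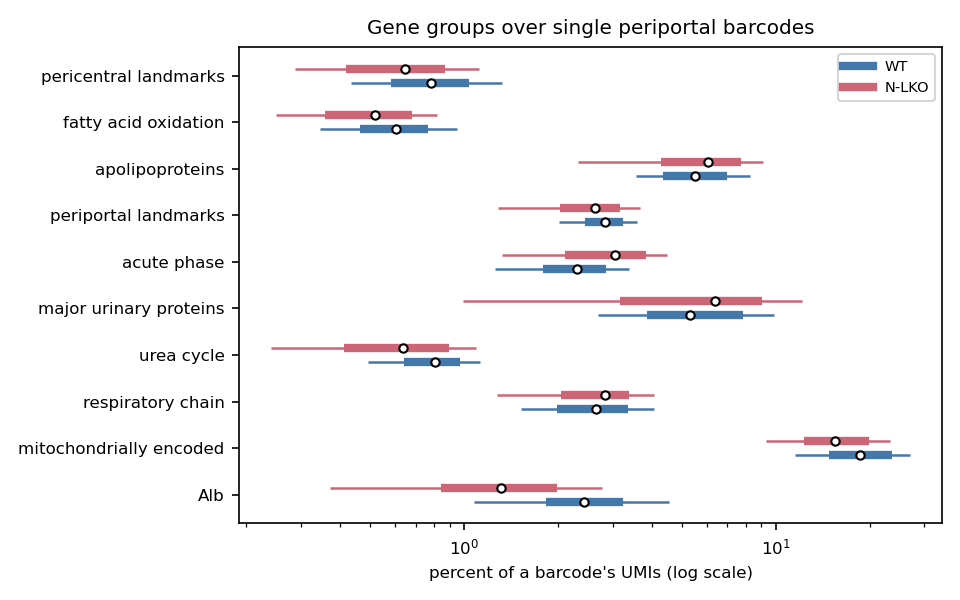
Percent of a barcode's UMIs taken by gene groups (log x axis) in WT (blue) and N-LKO (red) periportal barcodes, with the median as a circle, the middle 50% as a thick bar and the middle 80% as a thin line. The N-LKO range for major urinary proteins (0.988% to 12.1%) is wider than that of WT (2.70% to 9.88%), and the Alb range is lower.

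Receptor tyrosine kinase signalling (0.05), hepatocyte transcription factors (0.16), clock genes (0.05), Wnt targets and regulators (0.09) and glutathione and NRF2 targets (0.17) were all above 0 as CPM and below 0 relative to all genes. Among the transcription factors Onecut1 (1.69) was at least 2-fold higher and Nr2f2 (-1.45) was lower. In the antioxidant list the cystine importer Slc7a11 stood at 1.55 CPM in WT against 21.7 CPM in N-LKO (3.73) and the malic enzyme Me1, which feeds lipid synthesis, at 285 and 125 CPM (-1.18). Free RNA of N-LKO held Slc7a11 at 25.6 CPM, above its periportal level. Egfr, the epidermal growth factor receptor, was at 455 and 513 CPM (0.18). Cholesterol synthesis had a median of -0.17 over 16 genes, with Insig1, a sterol-regulated brake on the pathway, at 228 and 83.1 CPM (-1.44). Midlobular genes, which peak between both ends, had a median of -0.46 over 8 genes, with the bile acid hydroxylase Cyp8b1 at 175 and 74.0 CPM (-1.22). The pericentral landmarks, at low level in these cells, had a median of 0.03, with 5 of 31 at least 2-fold higher, among them Gstm3 (2.26), and 7 at least 2-fold lower, among them Car3 (-1.15).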

How the data were processed

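Deposited by the authors were raw counts of UMIs per gene and barcode for 32285 genes, without normalization. Per the file headers they came from Cell Ranger 7.1.0. The submitters' processing notes name the genome build mm9, and whether intronic reads were counted was not given in the sources used here. Cell classes were rebuilt without the authors' annotation, so a difference from the study may come from the rebuilt names. Periportal members, gene lists and comparisons were chosen with earlier results of these data known.

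UMIs were summed over the barcodes of each class and library and scaled to CPM. Log2 ratios had 0.5 UMI added to each sum, and a gene was called when it differed at least 2-fold. Intervals at 95% are exact, Clopper-Pearson for shares and conditional binomial for ratios. The ratio calculation was tested on simulated data. Gene lengths for the length classes came from the GENCODE annotation. No doublet caller was run, and doublets with other cell types were limited by requiring no UMI of 7 nonparenchymal genes.

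Genes were named by rule. They are Nus1, Dhdds and the genes of the selection, the 10 highest and 10 lowest ratios with a mean of at least 20 CPM and an interval wholly past 2-fold, for each list described the 3 most abundant members and the 3 with the largest ratios, and the 8 most periportal and 8 most pericentral genes. Hnf4a, Hp, Slc10a1, Apob, Lpin1, Dgat1, Por and Cyp2c68 were named after their values were seen, as was Scd1 in the plot of levels. The software was matplotlib 3.10.9, pandas 2.3.3, scipy 1.17.1, numpy 2.4.6 and Python 3.11.15. Alternatives changed the filters, gates, depth, scale and free RNA, and 1 of 17 was added after seeing the data.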

Additional observations from a re-analysis of the deposited data

Results flagged for a closer look

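Of the genes named for the highest or lowest ratios or as members of a list, 4 had ratios of N-LKO over WT on opposite sides of 0 in periportal and pericentral barcodes, with both counting intervals excluding 0. With 1 library per group the difference between the zones was not tested. Hamp2, a second hepcidin gene, had a log2 ratio of 1.49 in periportal and -2.20 in pericentral barcodes, and because it is nearly identical to Hamp, reads may be split between them. Fabp1, the liver fatty acid carrier, had -0.78 in periportal and 0.19 in pericentral barcodes. Transferrin (Trf) had -0.11 and 0.44, and Apoa2 had -0.064 and 0.18. Over the 17 alternatives the periportal ratio of Fabp1 was below 0 in 16 and above 0 in 1 (-1.36 to 5.40). That of Trf was below 0 in 14 (-0.54 to 0.39) and that of Apoa2 in 13 (-0.59 to 0.90). Hamp2 stayed above 0 (0.33 to 2.03).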

How the results depend on the processing

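Of 208 results, 156 were recomputed under all 17 alternatives and the others under at least 15, where they could be measured, giving 3475 values, of which 2735 stayed within the counting interval of the reported value (within 1.5 times for counts of genes), 733 left it and 7 changed sign although the reported value was at least 2-fold (for genes) and its interval (for medians, the median of the intervals) excluded 0. Without these conditions 219 values, of 83 results, changed sign. The cause of these changes was not tested. Genes at least 2-fold higher (reported 787) numbered 1802 without the Malat1 limit, 2261 with at most 10% mitochondrial UMIs, 1202 with at least 2000 UMIs, 1555 with the acute phase genes at 0, 1287 with a periportal sum of at least 6, 471 relative to the median of all genes, 2231 and 123 with mean CPM of at least 2 and 50, and 1706 with free RNA subtracted. Genes at least 2-fold lower (reported 190) numbered 298 with Malat1 under 0.5%, 822 with at most 10% mitochondrial UMIs, 364 with the acute phase genes at 0, 368 with a sum of at least 6, 419 after thinning, 342 relative to all genes, 501 and 67 with mean CPM of at least 2 and 50, 383 with free RNA subtracted and 332 with at most 1 nonparenchymal UMI. The periportal share in WT was 70.9% with at least 2000 UMIs, 38.4% with a sum of at least 6, 35.1% with more than 4 times the pericentral sum, 40.1% after thinning and 52.0% with at most 1 nonparenchymal UMI. In N-LKO it was 64.8% (46.1% in WT) with at most 10% mitochondrial UMIs, 50.9% without the acute phase gate, 33.2% (46.8% in WT) with those genes at 0, 37.1% with a sum of at least 6, 34.4% with more than 4 times and 50.8% with at most 1 nonparenchymal UMI. The Nus1 ratio was -0.054 with at most 10% mitochondrial UMIs and -1.75 with a sum of at least 6.

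Without the Malat1 limit, the medians were -0.57 for periportal landmarks, -0.37 for the respiratory chain and 0.38 for acute phase genes, and Cyp2c29 was at 0.025. With at most 10% mitochondrial UMIs they were -0.45 for the respiratory chain, 0.056 for mitochondrially encoded genes, -0.40 for lipogenesis, 0.89 for acute phase genes, 0.18 for bile acid genes and 0.89 for ductal and tumor-associated genes, Vegfa was at 0.77, and the zonation medians were 0.85 (periportal landmarks, WT), -1.05 and -0.66 (pericentral landmarks, WT and N-LKO). With free RNA subtracted the medians were 0.12 for the urea cycle, 1.72 for the respiratory chain and 0.22 for acute phase genes (0.34 for all genes), and Car3 was at 0.56. The acute phase median was 0.38 relative to all genes. The WT median of pericentral landmarks was -2.18 with a sum of at least 6, -1.98 with more than 4 times and -1.15 with mean CPM of at least 50. Npas2 was at -0.49 with the acute phase genes at 0. No paired analysis was possible because each group had 1 library. A median of 19 UMIs per gene in N-LKO limits what single genes can show.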
